A study of Mus musculus with 6 samples.

Results

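The 3 libraries described here were made from vehicle-treated GC-2 spd(ts) cells, and they are the control libraries among 6 in all. They were chosen by their titles and treatment label: 1 library of mRNA, 1 of microRNA (miRNA) and 1 of circular RNA (circRNA). GC-2 spd(ts) cells descend from mouse spermatocytes and were immortalised with a viral large T antigen together with a temperature-sensitive p53. The cells were grown at 37 °C and 5% CO2 in high-glucose DMEM with 10% fetal bovine serum and 1% penicillin-streptomycin. They were held for 12 h without serum and then kept for 48 h in complete medium containing 0.1% DMSO and 0 µM bisphenol A. RNA from that culture was split among the 3 libraries, of which the circRNA library was depleted of ribosomal RNA and of linear RNA with RNase R. One line, one culture and 1 library per RNA class stand behind every value, so no value has a replicate check and no test was made.

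A mature miRNA is cut from either arm of a hairpin, 5p or 3p, and is loaded into an Argonaute protein, where its seed (bases 2 to 8) pairs with target mRNAs. A circRNA is a closed loop formed when a splice donor joins an acceptor upstream of it, and the read across that back-splice is what identifies it. Spermatocytes are the male germ cells that carry out meiosis, and in the testis they sit among Sertoli cells, Leydig cells and contractile peritubular myoid cells.

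The 5 seeds with most reads among miRNAs matched to a sequence are shown here through their leading members, with a less abundant relative of miR-148a-3p and the 2 neighbours of miR-182-5p for comparison. The seed is in capitals. Sequences are from RefSeq (GRCm38.p6), which held an entry for 597 of the 931 listed features, and for 13 of the 15 miRNAs with most reads. The first lines share the seed of the miR-148 family:
miR-148a-3p: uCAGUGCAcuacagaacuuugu
miR-148b-3p: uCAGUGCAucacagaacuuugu
The next share the let-7 seed:
let-7f-5p: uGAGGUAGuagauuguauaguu
let-7i-5p: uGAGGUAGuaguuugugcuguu
let-7c-5p: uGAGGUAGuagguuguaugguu
let-7g-5p: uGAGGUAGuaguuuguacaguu
The miR-10 pair follows:
miR-10a-5p: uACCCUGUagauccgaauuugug
miR-10b-5p: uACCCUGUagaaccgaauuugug
The miR-99 and miR-100 group has this seed:
miR-99b-5p: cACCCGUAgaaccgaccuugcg
miR-99a-5p: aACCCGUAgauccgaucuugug
miR-100-5p: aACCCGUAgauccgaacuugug
The last set comes from the cluster of miR-182, miR-96 and miR-183, whose seeds differ:
miR-182-5p: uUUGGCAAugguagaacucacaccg
miR-96-5p: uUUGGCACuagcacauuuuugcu
miR-183-5p: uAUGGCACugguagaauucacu

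The control mRNA library held 32312872 reads in 22127 listed genes, of which 19887 were above 0 and 2240 at 0. No listed gene was at 0 in both the control and the BPA mRNA library, so genes without reads in either are not listed. Shares of genes are over listed genes only. The miRNA library held 3927981 reads, with 665 of 931 features above 0, and the circRNA library held 12909 back-splice events in 4706 circRNAs. By a fixed rule, a count of 0 was taken to allow up to 3 reads. That is 0.0928 CPM (reads scaled to the library total) for an mRNA, 0.764 CPM for a miRNA and 0.0232% of the events for a circRNA. The exact intervals at 0 reads reach higher, to 1.142e-05% of the mRNA reads and 9.391e-05% of the miRNA reads. All intervals are exact 95% binomial (Clopper-Pearson) intervals, and they cover counting error only, because reads copied by PCR and carrying no molecular identifier do not count molecules independently. The concentration of the classes differed widely. The 10 leading features held 90.4% of the miRNA reads, 10.8% of the circRNA events and 4.68% of the mRNA reads. For mRNA, 936 genes were needed to reach 50% of the reads and 5597 to reach 90%.

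**Figure D1:**
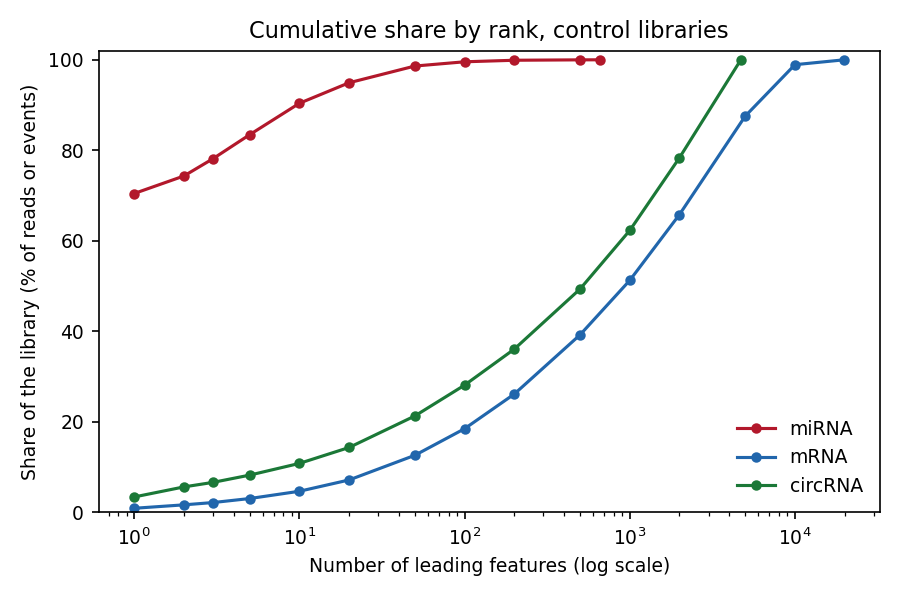
Share of each control library (%, vertical axis) held by its leading features (number on a log axis), for miRNA, mRNA and circRNA. The miRNA curve starts at 70.5% with its first feature, while the first circRNA held 3.42% and the first mRNA 0.917%.

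Levels of mRNA were compared between genes per length, as TPM (reads per length, scaled to a fixed total) computed from reads and merged exon length. Of 22036 genes with a length, 14444 (65.5%) reached 1 TPM, and the median gene stood at 4.40 TPM. These include genes that are not protein-coding. Of 14605 protein-coding genes 11176 reached 1 TPM, with a median of 12.6 TPM. Nearly all members of the gene lists below are protein-coding, so the 65.5% of all genes is a low mark for them. A gene of 2 kb at 1 TPM had about 22.4 reads. The leading transcripts per length were those of respiration and translation. Mitochondrially encoded mRNAs took 2.95% of the reads and 8.90% of the TPM with 13 genes. The cytochrome oxidase subunit mt-Co1 (mitochondrial genome, 5328 to 6872) was first with 296198 reads and 17087 TPM. The oxidase subunits mt-Co2 and mt-Co3 stood at 9694 and 7218 TPM, the complex I subunits mt-Nd1 and mt-Nd2 at 9504 and 4656, the cytochrome mt-Cytb at 9196, and the ATP synthase subunits mt-Atp6 and mt-Atp8 at 9474 and 8259. The exons of mt-Atp6 overlap those of mt-Atp8 and mt-Co3, so their separate levels are uncertain. The nuclear copies Gm10925, Gm28661 and Gm28437, with 78159, 77172 and 65298 reads, can share reads with the mitochondrial genes.

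Of 84 cytosolic ribosomal protein genes, 83 reached 1 TPM, with a median of 950.2 TPM and 6.13% of all reads. Rplp1 was at 5733 TPM, Rplp0 at 4741, Rps15 at 4569, Rpl23a at 4508, Rpl8 at 4231 and Rps2 at 4207. The elongation factors stood near them, Eef1a1 (chromosome 9, 78478449 to 78489151) with 245478 reads and 8776 TPM, and Eef2 with 127059 reads and 3407 TPM. The chaperone Hsp90ab1 had 163377 reads and 4855 TPM. Lgals1, which encodes the secreted lectin galectin-1, reached 6980 TPM, the calcium-binding S100a11 4621 and the actin Actb 3900. Snord2 was listed at 4123 TPM from 3192 reads, but this small nucleolar RNA is 69 bases long and lies inside Eif4a2, so its level per length is uncertain. By reads alone, the chaperone Hspa8 and the glycolytic enzyme Gapdh, with 91494 and 90452, completed the first 10.

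The fourth gene by reads was Trp53, which encodes p53. It had 159652 reads (0.494% of the library, interval 0.492% to 0.497%) and 3518 TPM, rank 30 per length (chromosome 11, 69580359 to 69591873, GRCm38). A gene count holds the reads of an introduced p53 and of the endogenous gene together. All 9 analysed genes of the p53 and RB axis were at 1 TPM or more, which 65.5% of all genes were. After Trp53 came Cdkn2a, which encodes p16INK4a and p19ARF, with 8882 reads and 675.5 TPM, and the transcription factor E2f1 at 61.5 TPM. The p53 inhibitor Mdm2 was at 42.9 TPM and the p53 target Cdkn1a (p21) at 26.5. Rb1, the retinoblastoma gene, was the lowest at 6.09 TPM. The axis thus ran from the leading ranks of the library to a level above the median of all genes (4.40 TPM) but below that of protein-coding genes (12.6 TPM).

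Germ cell transcripts were few and low. Across the 4 lists of germ cell identity, spermatogonia, meiotic spermatocytes and spermatids there were 88 genes, of which 41 were analysed and 47 were not analysed here. The 47 enter no share, and a gene without reads in both mRNA libraries would not be listed. Of the 41, 9 (21.95%) reached 1 TPM beside 65.5% of all genes, and their median was 0.193 TPM beside 4.40. Hspa2, the heat shock protein that marks spermatocytes (chromosome 12, 76404176 to 76406938), had 411 reads and 13.8 TPM. In bulk RNA, fewer cells of a type and less RNA per cell cannot be told apart.

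The meiotic list held the highest germ cell member. Syce2, a central element protein of the synaptonemal complex that joins paired chromosomes, had 1655 reads and 75.0 TPM (chromosome 8, 84872111 to 84888221). Mybl1, a transcription factor of pachytene spermatocytes, was at 8.27 TPM, and Prdm9, the methyltransferase that places recombination hotspots, at 4.70 TPM from 227 reads. The other 10 analysed members were between 0 and 0.5 TPM. Among them, the axial element gene Sycp3 had 6 reads, the recombination gene Meiob 3 and the meiotic cohesin Stag3 0. Of the meiotic genes that would mark a spermatocyte, 4 of 14 analysed (28.6%) were at 1 TPM beside 65.5% of all genes, so the labelled origin of the line was met by few of its markers.

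The germ cell identity list had 3 of 10 analysed members (30%) at 1 TPM. The share of all genes, 65.5%, is the mark for this and the next counts. Tdrkh, a tudor protein of piRNA biogenesis, had 318 reads and 4.62 TPM. The RNA-binding Dnd1 had 65 reads and 2.40 TPM, and Gtsf1, a partner of PIWI proteins, had 34 reads and 2.18 TPM. Exons of Tdrkh and Dnd1 overlap antisense genes, and how the authors' counting used strand is not given, so these values are uncertain. Ddx4, the RNA helicase of germ cells, had 0 reads, and Piwil2 had 7. The piRNA pathway list, which shares members with it, had 1 of 7 analysed members at 1 TPM, again Tdrkh. Of the spermatogonial list 2 of 10 analysed members reached 1 TPM, the transcription factor Etv5 at 25.3 TPM and the TFIID subunit Taf4b at 10.9. Gfra1, the GDNF receptor of stem spermatogonia, followed at 0.846 TPM, and Kit had 7 reads. No analysed spermatid gene of 7 reached 1 TPM. The highest were the kinase Tssk6 with 5 reads and 0.334 TPM, the sperm glycolytic enzyme Gapdhs with 5 reads, and Tssk1 with 10.

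Genes of fibroblasts and smooth muscle had a higher median. Of 41 genes on the 2 lists, 37 were analysed and 29 (78.4%) reached 1 TPM beside 65.5% of all genes. Their median was 31.6 TPM beside 4.40. Of protein-coding genes 11176 of 14605 reached 1 TPM, a share near that of the lists, with a median of 12.6 TPM. The highest members of the 2 lists secrete or assemble extracellular matrix. Col1a1, a chain of type I collagen (chromosome 11, 94936224 to 94953042), had 79234 reads and 1076 TPM, rank 16 of all genes by reads. The matrix protein Sparc was at 1265 TPM (53769 reads), the adhesive glycoprotein Thbs1 at 1065 (72559 reads) and the intermediate filament Vim at 971.2 (51685 reads). The collagen chaperone Serpinh1 stood at 804.6 TPM, the crosslinking enzyme Lox at 573.6 and fibronectin, Fn1, at 509.4. Exons of Thbs1, Lox and Fn1 overlap antisense genes, so their counts may hold reads of both strands.

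Acta2, the smooth muscle actin (chromosome 19, 34241090 to 34255590), had 10324 reads and 419 TPM, rank 306 per length. Tagln, which binds actin filaments, was at 153.8 TPM and the tropomyosin Tpm2 at 99.2. These 3 are shared by smooth muscle and myofibroblasts. The other members were spread widely. Smtn, which binds actin in contractile cells, was at 61.2 TPM, Actg2 at 5.78 and Lmod1 at 3.30, while Cnn1 was at 0.684 TPM, Des at 0.546 and the smooth muscle myosin Myh11 at 0 reads. The mesenchymal transcription factors Snai2, Twist1, Twist2, Prrx1 and Zeb1 were all detected, between 10.6 and 40.2 TPM. The fibroblast list was not complete either, since the type III collagen Col3a1 had 80 reads and 0.726 TPM, Postn had 43 reads, and Dcn and Fap had 0.

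**Figure D2:**
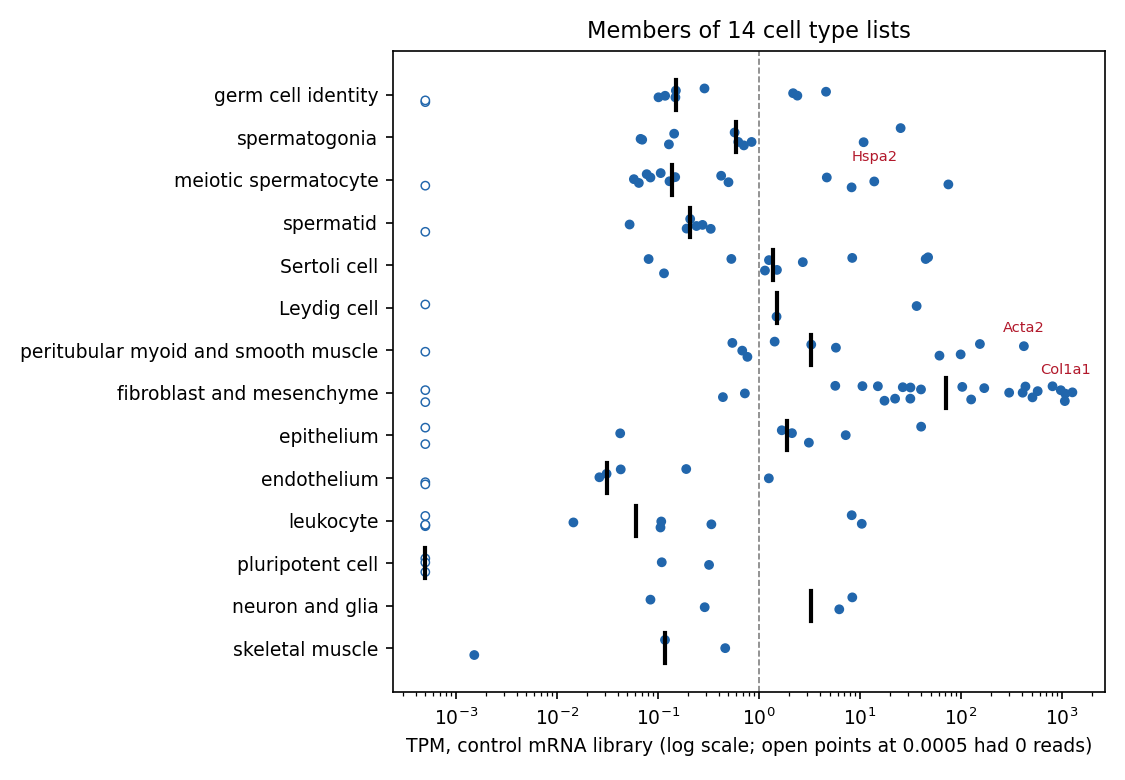
Level of each analysed member (point) of 14 cell type lists in the control mRNA library, in TPM on a log axis, with list medians as black bars and 1 TPM as a dashed line. The fibroblast list lies highest with a median of 71.5 TPM and holds Col1a1 at 1076 TPM, Acta2 leads the smooth muscle list at 419 TPM, and Hspa2 stands at 13.8 TPM in a meiotic list whose median is 0.139.

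Collagen genes split into a small set of high members and many near 0. Of 34 analysed collagens, 17 reached 1 TPM, a lower share than the 65.5% of all genes, and 7 reached 100 TPM. After Col1a1 came the fibrillar Col5a2 at 407.2 TPM and Col1a2 at 299.5. The basement membrane pair Col4a1 and Col4a2, which lie head to head on chromosome 8, stood close together at 179 and 171.3 TPM, and their exons overlap on opposite strands. Col6a1 was at 126 TPM and Col5a1 at 102.9. The cartilage collagen Col2a1 and the fibril-associated Col14a1 had 0 reads. Col1a2 stood at 547.5 TPM when the longest transcript was taken as its length, so its order beside Col5a2 (463.9 TPM on that scale) is not firm.

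Of the Sertoli list 7 of 10 analysed members (70%) reached 1 TPM, a share close to the 65.5% of all genes, with Clu, a secreted chaperone, at 47.2 TPM, the transcription factor Gata4 at 44.7 and Sox9 at 8.38. Amh, the anti-Müllerian hormone, had 10 reads, and Wt1 had 8. Of 3 analysed Leydig genes, Nr5a1, the steroidogenic transcription factor SF-1, had 1731 reads and 36.4 TPM, and Star, which moves cholesterol into mitochondria, had 69 reads and 1.495 TPM. Insl3 had 0 reads. Gata4 and Nr5a1 were far above the hormones Amh and Insl3, which were at 10 reads or fewer. This was no general split of transcription factors and hormones. The transcription factor Wt1 was below Amh, and the inhibin subunits Inhbb and Inha reached 1.51 and 1.15 TPM.

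Of the other cell types, the epithelial list was near the share of all genes, with 5 of 8 analysed genes (62.5% beside 65.5%) at 1 TPM, led by the keratin Krt14 with 795 reads and 40.3 TPM. Esrp2, whose exons overlap antisense genes, was at 7.23 TPM and Krt19 at 3.12, and Krt5, the usual partner of Krt14, had 0 reads. Of 7 endothelial genes only Kdr passed, at 1.25 TPM. Of 10 leukocyte genes Cd68 was at 10.4 TPM and Cd14 at 8.28, and the pan-leukocyte Ptprc had 3 reads. Of 4 neuronal and glial genes, Tubb3 was at 8.40 and Map2 at 6.24 TPM. None of 5 pluripotency genes and none of 3 skeletal muscle genes reached 1 TPM. Sox2 had 0 reads. The defining markers of leukocytes and endothelium were at or near 0.

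The Hox genes, transcription factors arranged in 4 clusters that record position along the body axis, were measured nearly throughout. Of 39 annotated genes 34 were analysed and 30 reached 1 TPM, which 65.5% of all genes did. All 9 analysed HoxB genes and all 8 HoxC genes did so, as did 9 of 10 HoxA genes and 4 of 7 HoxD genes. Hoxb9 was highest with 2589 reads and 89.7 TPM (chromosome 11, 96271457 to 96276595). Hoxc6 followed at 31.8 TPM, Hoxb7 at 29.2, Hoxa7 at 28.8 and Hoxb6 at 22.7. The posterior genes differed between clusters. Hoxc13 and Hoxb13 stood at 15.5 and 12.6 TPM, while Hoxa13 and Hoxd13 had 3 reads each. Summed over the cluster, HoxD reached 14.6 TPM beside 187 for HoxB.

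**Figure D3:**
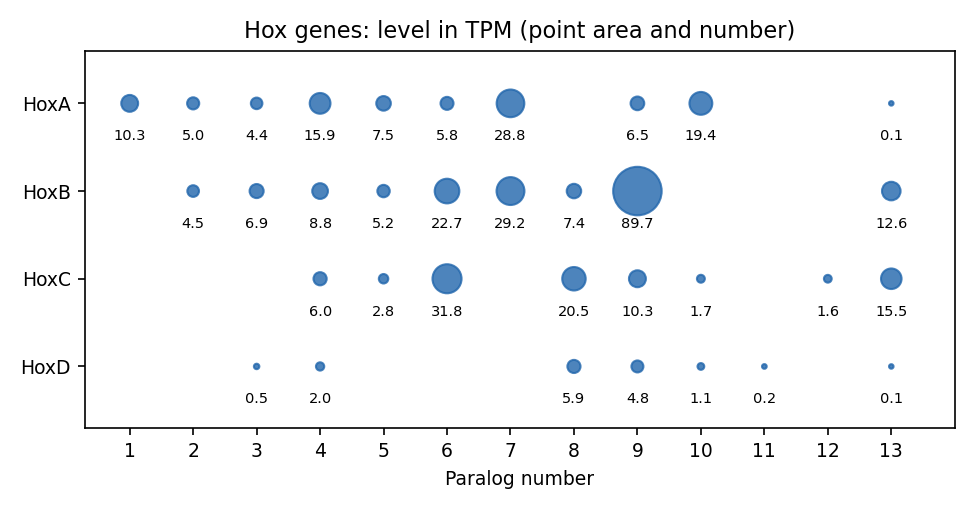
Hox genes of the control mRNA library by cluster (rows) and paralog number (horizontal axis), with the level in TPM as the area of the point and as the number under it. A position without a point is a gene that does not exist in the mouse or was not analysed here. Hoxb9 is highest at 89.7 TPM, and the HoxD row is low throughout, with Hoxd8 highest at 5.94 TPM.

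Receptors through which hormones and BPA can act were unevenly represented in the unexposed cells. Of 13 analysed members 7 (53.8%) reached 1 TPM beside 65.5% of all genes. Pparg, a lipid-sensing receptor, was at 33.8 TPM, the glucocorticoid receptor Nr3c1 at 32.4 and the thyroid hormone receptor Thra at 18.9, whose exons overlap antisense Nr1d1. Esr1, the estrogen receptor alpha, had 302 reads and 1.97 TPM. Estrogen receptor beta, Esr2, had 0 reads, which allows 0.0928 CPM, and the membrane receptor Gper1 had 17 reads.

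Among imprinted genes, which are expressed from 1 parental copy, 8 of 17 analysed members (47.1%) reached 1 TPM beside 65.5% of all genes. Igf2r was highest at 49.99 TPM, followed by Impact at 32.0 and Ndn at 14.6. Plagl1 was at 6.14 TPM and Cdkn1c at 4.50, while Igf2 had 14 reads, H19 15, Mest 5 and Grb10 0. None of the 8 Y-linked genes of the list was analysed here, and Xist, which coats the inactive X chromosome, had 3 reads. Other genes annotated on the Y chromosome numbered 10 with 2410 reads, of which 1807 were from Erdr1, a gene of the region shared with X. Gm21857 (375 reads) and Gm21742 (29) lie on either side of Erdr1, and Gapdh-ps15 (53) is a pseudogene. Gm20775, with 142 reads, lies apart from them. Whether the cells carry a Y chromosome was not tested.

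All 13 glycolytic genes were at 1 TPM or more, which 65.5% of all genes were. Of the 13, 8 were above 1000 TPM, led by Pgk1 at 2041, Gapdh at 1951 and Pkm at 1606. Of 19 analysed miRNA factors 18 (94.7%) reached 1 TPM beside 65.5% of all genes, with the helicases Ddx5 at 384.5 and Ddx17 at 165.9 TPM and the exporter Xpo5 at 85.0. The nuclease Drosha was at 76.0 TPM and Dicer1 at 10.7. Among the Argonautes, Ago2 stood at 40.7 TPM, Ago1 at 20.3 and Ago3 at 6.51, and Ago4 had 5 reads. Of 22 genes linked to circRNA formation and decay 20 (90.9%) reached 1 TPM, also beside 65.5%. The splicing factor Hnrnpa1 was at 1122 TPM, Ptbp1 at 251.6 and the helicase Ddx39 at 238, and Qk, an RNA-binding protein known to promote circularisation, was at 40.3.

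In the miRNA library 1 sequence outweighed all others. miR-148a-3p had 2767490 reads, 70.5% of the library (interval 70.4% to 70.5%), while the next, miR-182-5p, had 152036 reads and 3.87%. miR-10a-5p followed with 150207 reads, miR-151-3p with 112735, let-7f-5p with 95596, let-7i-5p with 80598 and miR-10b-5p with 80333. miR-143-3p had 49151 reads, let-7c-5p 32989, miR-183-5p 29245, miR-7a-5p 26568, miR-99b-5p 24756, miR-99a-5p 22491, miR-21a-5p 20741 and let-7g-5p 15889. The 10 leading miRNAs held 90% of the reads and 62 held 99%. Of the 931 features 327 (35.1%) had at least 10 reads, and the median of those above 0 was 9 reads. Small RNA libraries capture sequences with unequal efficiency, so an order of reads between miRNAs is an order within the library and not of molecules.

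Among miRNAs matched to a sequence, which held 95.1% of the reads and did not include miR-151-3p (2.87%) or miR-143-3p (1.25%), the order by seed was also steep. The seed CAGUGCA held 70.6% of the reads, of which miR-148a-3p made up 99.8%, miR-148b-3p having 3214 reads and miR-152-3p 1903. The let-7 seed GAGGUAG held 6.27%, spread over 10 detected members with let-7f-5p at 38.8% of them. The miR-10 seed ACCCUGU held 5.87%, of which miR-10a-5p made up 65.2%. UUGGCAA, the seed of miR-182-5p alone, held 3.87%, and ACCCGUA of miR-99 and miR-100 held 1.60%. The members of the last group were close to each other, with 24756, 22491 and 15598 reads.

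The 2 arms of a hairpin were unequal in most cases. Of 189 hairpins with both arms listed, 44 had at least 1000 reads. The 3p arm led in 19 and the 5p arm in 25, and the minor arm held under 5% in 31 and over 20% in 7. The 5 with most reads were near complete: miR-148a had 99.98% of its reads on 3p, miR-151 99.6%, miR-182 4 reads on 3p against 152036, miR-10a 63 against 150207, and let-7i 5 against 80598. miR-199a had 1963 reads on 5p and 1688 on 3p, but its 3p sequence is identical to that of miR-199b, listed with 1820 reads, so how the 3p reads divide between them is uncertain. miR-423 had 2307 reads on 5p and 1458 on 3p. miR-30a had 35.1% on 3p, while its relative miR-30e had 94.8% on that arm (interval 94.3% to 95.2%). miR-27a had 10013 reads on 5p and 3365 on 3p, whereas miR-27b, whose 3p arm has the same seed, had 20 and 7697. miR-106b had 275 reads on 5p and 13150 on 3p. The 3p sequences within each pair below are nearly identical, and how reads were divided between such sequences is not given, so their arm shares are uncertain. These pairs are shown because the listed reads of closely related hairpins differed in their leading arm:
miR-30a-3p: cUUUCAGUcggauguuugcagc
miR-30e-3p: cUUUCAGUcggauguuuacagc
miR-27a-3p: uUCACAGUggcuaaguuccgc
miR-27b-3p: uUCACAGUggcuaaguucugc

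**Figure D4:**
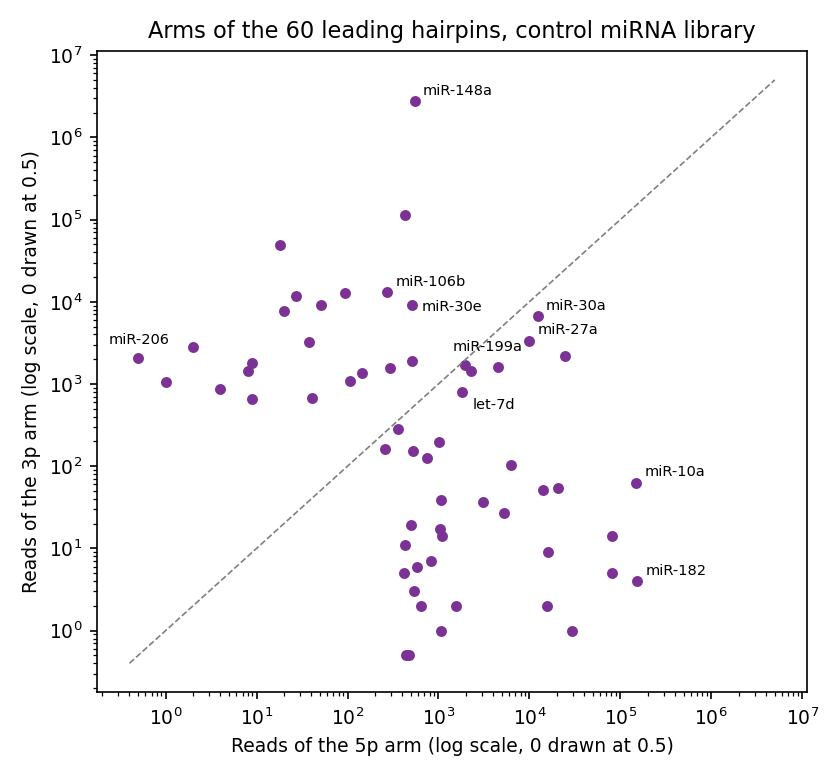
Reads of the 5p arm (horizontal) and the 3p arm (vertical) of the 60 hairpins with most reads, both on log axes, in the control miRNA library; the dashed line marks equal arms. Most hairpins lie far from the line, and miR-30a, with 12301 and 6656 reads, lies nearer to it; the 3p reads of miR-199a are uncertain because miR-199b shares that sequence.

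The miRNAs of fibroblasts and smooth muscle were well represented, but so were 2 lists drawn up by miRNA family. Of 14 miRNAs linked to fibroblasts and smooth muscle all were analysed, and 25 of their 31 arms had at least 10 reads, beside 35.1% of all features. Together they had 126697 reads, 3.23% of the library and 10.9% of what remained without miR-148a-3p. Of the let-7 list 17 of 21 arms had at least 10 reads, and of miR-17-92 and its paralogs 14 of 17. All other miRNA lists had smaller shares, so the share of arms is not particular to fibroblast and smooth muscle miRNAs. miR-143-3p, a miRNA of smooth muscle and fibroblasts, led the fibroblast and smooth muscle list, followed by miR-21a-5p and by miR-100-5p with 15598 reads. miR-145a-5p, from the same primary transcript as miR-143, had 1066 reads. miR-199a-5p and miR-214-3p, known from mesenchyme, had 1963 and 287.

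Germ cell miRNAs had 740 reads in all over 15 analysed arms, 3 of which had at least 10 reads, beside 35.1% of all features. miR-34c-5p, abundant in spermatocytes and spermatids, had 586 reads (0.0149% of the library, interval 0.0137% to 0.0162%). miR-881-3p, from an X-linked testis cluster, had 103 and miR-871-3p 28, and miR-449a-5p had 1 read. Epithelial miRNAs of the miR-200 family and miR-203 and miR-205 had 12 reads together, led by miR-203-3p with 7. The pluripotency cluster of miR-290 to miR-295 had 0 reads over 5 analysed arms, and the imprinted Dlk1-Dio3 cluster had 10 reads over 8. Blood cell miRNAs had 446 reads, of which 424 were miR-155-5p, and the endothelial miR-126a-3p had 38.

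Some miRNAs known from other tissues were detected. For skeletal muscle, 3 of 8 listed mRNAs were analysed. miR-206-3p, a miRNA of skeletal muscle, had 2062 reads, while miR-1a-3p had 133 and no analysed skeletal muscle mRNA reached 1 TPM. The sequence of miR-206-3p is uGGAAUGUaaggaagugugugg, and it lies on chromosome 1 at 20679055 to 20679076. miR-182-5p, miR-96-5p and miR-183-5p come from 1 cluster on chromosome 6, between 30165962 and 30169732, and had 152036, 1547 and 29245 reads, a spread of more than 1 order of magnitude within a single cluster. Neuronal miR-9-5p had 116 reads, and liver miR-122-5p had 19. From the cluster in an intron of Sfmbt2, 11 of 40 arms had at least 10 reads, a share near the 35.1% of all features, with 831 of the 1207 reads on miR-467a-5p.

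Several miRNA genes lie inside host genes whose mRNA was measured beside them. Mcm7, a replicative helicase subunit, was at 246.2 TPM and carries in its introns miR-106b, miR-93 and miR-25, whose leading arms had 13150, 642 and 11738 reads. Their positions on chromosome 5 run from 138165332 to 138165807. miR-10b lies within the Hoxd3 and Hoxd4 loci (chromosome 2, 74726074 to 74726096) and had 80333 reads, while Hoxd3 and Hoxd4 had 22 and 65. miR-196b within Hoxa9 had 227 reads and miR-615-3p within Hoxc5 had 651, with host levels of 6.52 and 2.77 TPM. miR-335, inside Mest, had 1 read on each arm where Mest had 5. Huwe1, a ubiquitin ligase at 126.4 TPM, hosts miR-98 with 1096 reads and 1 of the copies of let-7f. Another copy is on chromosome 13, and how the 95596 reads of let-7f-5p divide between the copies is unknown. miR-21a overlaps Vmp1, at 85.9 TPM. miR-3535 had 7604 reads and lies within a small nucleolar RNA in an intron of Ncl, the nucleolin gene at 588.9 TPM (chromosome 1, 86352062 to 86352087). A high host level and a high miRNA count did not always come together, as the listed counts of miR-10b show. The sequence of miR-10b-5p is nearly identical to that of miR-10a-5p, which had 150207 reads. How reads were divided between them is not given, so the count of miR-10b is uncertain.

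The circRNA library was wide and shallow. Of 4706 circRNAs, 2619 (55.7%) had 1 event, 2087 had at least 2, 466 at least 5 and 165 at least 10, and those 165 held 33.7% of the events. A step of 2 in the deposited values was taken as 1 event. If it stood for 2 reads, the intervals would be wider than needed. Circles of exons made up 97.6% of the events (interval 97.3% to 97.9%). Of these 4539 circRNAs, 98.7% were flanked by the AG and GT of splice sites in the genome and 98.8% started and ended at annotated exon borders. The 92 circles labelled as intronic had such flanks in 8.70%. The classes are the authors' labels, and how they were set is not given. If exon borders were used, these shares follow from the labels and are no separate check. By name, 547 circRNAs (11.6%) were listed with a circBase identifier, and they held 31.8% of the events.

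Exonic circles followed the structure of their genes. By annotated exons they had a median of 3 exons and a spliced length of 423 bases, over a median genomic span of 6148 bases for all circRNAs. Only the back-splice was read, so all annotated exons between its ends were taken as kept, which was not tested. Circles of 1 exon were 4.84% of the circRNAs matched to a transcript and held 13.5% of the events. Exon 2 was the first exon of 1492 of 4486 circles (33.3%), and these held 46.6% of the events, while 6 circles began with exon 1 and 10 ended with the last exon. First and last exons lack 1 of the splice sites that a back-splice needs.

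The most abundant circRNA was a circle of exon 2 of Nfix, a nuclear factor I transcription factor (chromosome 8, 84771784 to 84772315, minus strand). It had 441 events, 3.42% of the library (interval 3.11% to 3.74%), and is 532 bases long. The second was exon 2 of Pvt1, a long noncoding RNA next to Myc (chromosome 15, 62107148 to 62107465), with 287 events and 318 bases. Then came exon 3 of Ptchd4, a patched-domain protein (chromosome 17, 42377160 to 42377640), with 129 events, and exons 2 to 4 of Rras2, a Ras-related GTPase (chromosome 7, 114058540 to 114060419), with 106. The X-linked transcription factor Zfx gave 2 circles that share a donor, with 101 events for exons 2 to 4 and 71 for exons 3 to 4. The sequences across their back-splices are given because this join, which no linear transcript of the reference order has, defines each circle. They were read from the GRCm38 genome, with 15 bases before the join in lower case and 15 after it in capitals:
Nfix: ttgtccacactccggGATGAGTTCCACCCG
Pvt1: agctccctctaaaatGTCTGATTTTCTTAA
Ptchd4: ctttcttcgccatggGATGGGAGGAACAGT
Rras2: gaccatcagagacagTCCTATTTTGTGACG
Zfx, exons 2 to 4: accttatgatctcttGTGCGTATAACTGTG
Zfx, exons 3 to 4: accttatgatctcttGTGTTCTGGCTGATG

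The next circRNAs were from Cnot6l, a deadenylase (72 events), Erbin, a membrane scaffold (66), Foxn2, a forkhead factor (64), and Farsa, a phenylalanyl-tRNA synthetase subunit (61). Below them, Gm21992 had 53 events, Zfp292 50, and Txndc11, Crim1 and Med13l 47 each. Gm21992 overlaps Rbm4 and Rbm14 on the same strand, so its host is uncertain. The intervals of neighbours overlap from Ptchd4 on, so neighbouring ranks below Pvt1 are not resolved, while the interval of Ptchd4 lies above those of Cnot6l and all later ones named. Of the first 10, 5 had a circBase identifier. The circles of Zfx, Erbin and Foxn2 hold the annotated start codon of their gene, and those of Nfix, Ptchd4 and Rras2 lie within the coding sequence.

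Summed by host gene, Nfix had 444 events, Pvt1 312, Zfx 173, Ptchd4 142, Arhgap10 109, Rras2 108, Cnot6l 81, Crim1 78, Foxn2 74 and Erbin 66. These 10 held 12.3% of all events (interval 11.7% to 12.9%). Hosts differed in how many circles shared their events. In Nfix 1 circle made up 99.3% of the host's events, and in Pvt1 92.0%. Arhgap10, a GTPase-activating protein, had 18 different circRNAs, the leading one with 32.1% of its events. Rere, a transcriptional corepressor, had 16, the dynein heavy chain Dync2h1 13, and the phosphorylase kinase subunit Phkb and the microtubule factor Ckap5 12 each. In contrast, 1608 of 2657 host entries had 1 circRNA.

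Nearly all hosts were also expressed as linear RNA. Of 2620 single-gene hosts with a level, 2577 (98.4%) reached 1 TPM, with a median of 27.7 TPM, beside 65.5% of all genes. No host under 1 TPM had more than 6 events, so none combined at least 10 events with a linear level under 1 TPM. The linear levels of the leading hosts were spread widely. Nfix stood at 244.7 TPM with 20184 reads and Rras2 at 182.7, while Zfx was at 24.6, Ptchd4 at 26.0 and Cnot6l at 13.0 TPM. Pvt1 was lowest at 3.49 TPM, with 274 linear reads beside 312 events, and Arhgap10 stood at 90.7 TPM. The events come from a library treated with RNase R and the linear reads from another, so their ratio compares hosts with each other and is no share of molecules.

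**Figure D5:**
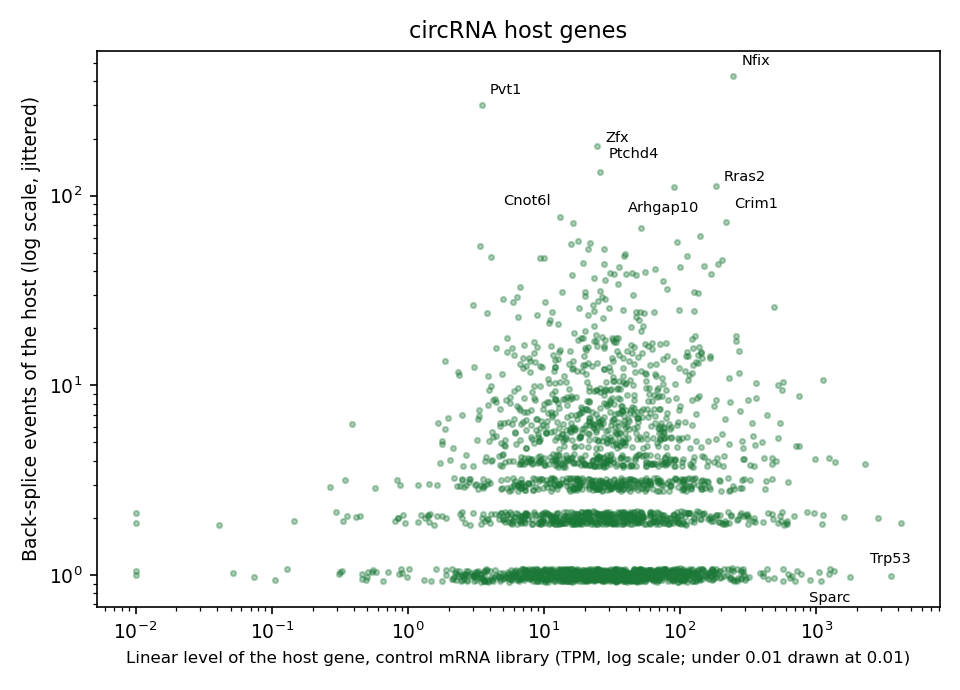
Back-splice events per host gene (vertical, log axis, points jittered) against the linear level of the host in the control mRNA library (horizontal, TPM, log axis) for 2620 hosts. Nfix and Pvt1 lead with 444 and 312 events at 244.7 and 3.49 TPM, and Trp53, at 3518 TPM, has 1 event.

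The genes that led the mRNA library gave few of the circRNA events. Of all genes with a length, 11.9% had at least 1 event. Of the 100 leading named mRNAs, 15 had an event, a share near that of all genes. The 100 include the 13 mitochondrially encoded mRNAs, which had no event. Together the 100 held 15.5% of the reads and 0.294% of the events, 38 events in sum, with Ldha at 10 the most. Leaving out mitochondrially encoded genes, 3 of the 20 highest per length had an event, 5 in sum: Rpl8 and Rpl4 with 2 each and Trp53 with 1. The lineage lists added little: the germ cell lists had 4 events, all from Taf4b, and the smooth muscle list had 0. Of 26 fibroblast genes 5 were hosts with 13 events, including Col5a1 with 5 and Fn1 with 4. Of 19 genes of the miRNA machinery 11 were hosts, with 48 events, of which Ddx17 had 13, Xpo5 6 and Drosha 5. Of the factors linked to circRNA formation, Mbnl2 had 6 events and Mbnl1 5.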

How the data were processed

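The authors' deposited values were on a log2 scale for mRNA and circRNA and read counts for miRNA, as read from the values themselves. The tools were STAR (circRNA, mRNA), StringTie (mRNA) and Bowtie 1.1.0 (miRNA) on GRCm38 or mm10, per the submitters' processing notes. Not given in the sources used here: counter, callers, annotation release and strand setting, so the count of any gene with an antisense overlap is uncertain. Control reads were recovered by undoing the log2, subtracting 1 and dividing by a step of 1.04 for mRNA and 2 for circRNA, and 100% came out whole within 0.001. Levels in TPM used merged exon lengths of GENCODE vM21, matched for 22036 of 22127 genes. Shares have exact binomial intervals (SciPy 1.17.1, Python 3.11.15). The recovery was tested on simulated data. A gene was called at 1 TPM, and a miRNA at 10 reads.

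With 1 library per group no test was made. The design named no test, and the BPA libraries gave no level reported here. The BPA mRNA library did bear on which genes were listed, since none was at 0 in both libraries. The 2240 genes at 0 in the control thus had reads in the BPA library. Named were the 20 mRNAs highest per length and 10 with most reads (no predicted genes, clones or pseudogenes), the 3 highest of each list with Acta2, Col1a1 and Hspa2, the 15 leading miRNAs, 1 to 3 per miRNA list, 5 seeds, 5 hairpins, 15 circRNAs, 10 hosts by events and 5 by kinds. Other genes, miRNAs, hairpins and host pairs were named after their values were seen. The members and lists were chosen with earlier results of these data known. Alternatives were gene length, thresholds, features in the total and circRNA classes.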

Additional observations from a re-analysis of the deposited data

How the results depend on the processing

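Of 27 alternatives over 9 results, 16 stayed within 1.5 times the reported count or within the counting interval of a share, and 11 moved. At 5 TPM 5 germ cell genes passed in place of 9, and at 10 reads 16 did. The 10 leading mRNAs held 4.02% of reads without mitochondrial genes and 9.19% of TPM, in place of 4.68% of reads. miR-148a-3p held 70.51% without unnamed features, in place of 70.46%. For 90% of the reads 29 miRNAs were needed without miR-148a-3p, and 6 seed families in place of 10 miRNAs. The 6 are reached if a miRNA without a matched sequence, such as miR-151-3p (2.87%), counts as a family of its own. With at least 1 event there were 4706 circRNAs and with at least 5 there were 466, in place of 2087. The 10 leading hosts held 15.3% of events among circRNAs with at least 2 events and 29.5% among those in circBase, in place of 12.3%. The fibroblast and smooth muscle count ran from 27 to 34 over its alternatives. No paired analysis was possible because each group had 1 library. Depth limits the circRNAs, since 55.7% rested on 1 event, and also the miRNAs, since 338 of 665 detected features had 1 to 9 reads. No other vehicle culture was measured, so the spread between vehicle cultures is unknown.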
